A study of Mus musculus with 36 samples.

Results

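Expression of 9 genes that stand between hormone, sugar and energy signals in B cell precursors was read in mouse B3 cells, a pre-B cell line, over 24 h of Ikaros induction. The genes were chosen by name, with earlier results of these data known: Nr3c1, Tsc22d3, Txnip, Cnr2, Insr, Stk11, Prkaa1, Prkab1 and Prkag1. All 9 were found, each in 1 row, among the 12762 genes of the deposited table. Messenger RNA was sequenced in 36 libraries, 3 in each of 12 groups. Ikaros cells carry a retroviral vector for haemagglutinin-tagged Ikaros fused to the hormone-binding domain of the estrogen receptor (HA-Ikaros-ERt2) with GFP behind an internal ribosome entry site, and control cells carry the vector with ERt2 but without Ikaros. Both are pools of transduced cells of 1 parent line, grown in IMDM with 10% FCS, so a difference between them can also hold what separated the pools before induction. Cells of both lines were collected 2, 6, 12, 18 and 24 h after 4-hydroxy-tamoxifen (4-OHT, 0.5 uM), which lets the fused Ikaros enter the nucleus. The labels give the drug for the 0 h libraries as well, whereas the methods describe 0 h cells without drug that were collected separately. A comparison with 0 h within a line therefore also compares collection occasions, and the replicates are numbered culture batches, 1, 2 and 4 at 0 h and 1, 3 and 4 later.

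The 9 genes belong to a circuit known from B-lineage cells. Ikaros and Pax5 are lymphoid transcription factors whose loss is common in B cell leukemia, and both are known to hold down the energy supply of B cell precursors. The glucocorticoid receptor (Nr3c1), the alpha-arrestin Txnip, which limits glucose uptake, and the cannabinoid receptor CB2 (Cnr2) have been described as effectors of that restraint, whereas the insulin receptor (Insr), the kinase LKB1 (Stk11) and AMP-activated protein kinase (AMPK) are on the side that a cell with a high energy demand depends on. AMPK is a trimer of a catalytic alpha subunit (Prkaa1), a beta subunit (Prkab1) and an AMP-sensing gamma subunit (Prkag1), LKB1 phosphorylates it, and Tsc22d3 (GILZ) is a gene that glucocorticoids induce in lymphocytes.

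Expression is given on the log2 scale as the authors normalized it, shifted by a constant, and serves to compare libraries for 1 gene and not 1 gene with another. Where a value is set against the means of all genes, it is only a rough mark of level. Ikzf1, which encodes Ikaros, was 5.19 to 6.26 higher in Ikaros than in control cells on the log2 scale at the 6 times, and all libraries went with the line in their label. Vector and endogenous transcripts are not separated there. All 11 pre-B markers looked for (among them Cd79a, Vpreb1, Igll1, Rag1, Il7r and Blnk) were in the table, and their mean level lay between 13.72 and 14.28 in control and between 13.30 and 14.98 in Ikaros libraries. Of 14 markers of other blood cells, 3 were in the table (Lyz2, Itgam and Klrb1c). Their mean level was 4.85 to 6.84 in control and 5.39 to 7.32 in Ikaros libraries. Single genes stood higher, with group means in Ikaros cells of 9.89 for Itgam at 18 h and 9.37 for Lyz2 at 0 h. The marker lists are not ranked against each other, since levels of different genes are not compared beyond that rough mark. At 24 h 8 of the 11 pre-B markers were higher and 2 lower in Ikaros cells, 90.9% called against 62.9% of all genes. They were led by Rag1 (5.19) and Igll1 (-3.96). Of the 3 others Itgam was higher (4.24) and Lyz2 lower (-2.94). The part of these shifts in the results on the members was not tested. The read depth is unknown from these values. In bulk RNA, fewer expressing cells and less RNA per cell cannot be told apart.

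By 24 h, 5 members were called higher in Ikaros than in control cells and 0 lower. At 24 h Txnip differed by 1.58 on the log2 scale, Nr3c1 by 1.08, Cnr2 by 0.69, Prkaa1 by 0.62 and Prkag1 by 0.28. Insr, Stk11, Prkab1 and Tsc22d3 did not pass the test there (limma, adjusted p 0.558, 0.758, 0.556 and 0.871). Differences between the lines were called at an adjusted p under 0.05. The number of members called was 0 of 9 at 0 h by limma (2 at an unadjusted p under 0.05, Tsc22d3 and Prkag1), where 8.33% of all genes were called. It was 1 of 9 at 2 h (19.1% of all genes), 4 at 6 h (37.3%) and 5 at each of the later times, when 45.8% (12 h), 58.2% (18 h) and 62.9% (24 h) of all genes were called. Without replicate 1 the counts at 2, 6, 12, 18 and 24 h were 0, 1, 3, 3 and 4, and without replicate 2 they were 0, 1, 3, 2 and 2, with Nr3c1 and Txnip among those called from 12 h on. Calls over all genes dropped as well, to 6576 of 12762 at 24 h without replicate 1 and to 6248 without replicate 2, and at 18 h to 6201 and 5432. Since so many genes were called, a call is not read here as a property of the group. At 24 h all 5 calls were higher in Ikaros cells, where 31.0% of all genes were called higher and 31.9% lower. The median difference of the 9 genes at 24 h was 0.28, against -0.01 over all genes.

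**Figure D1:**
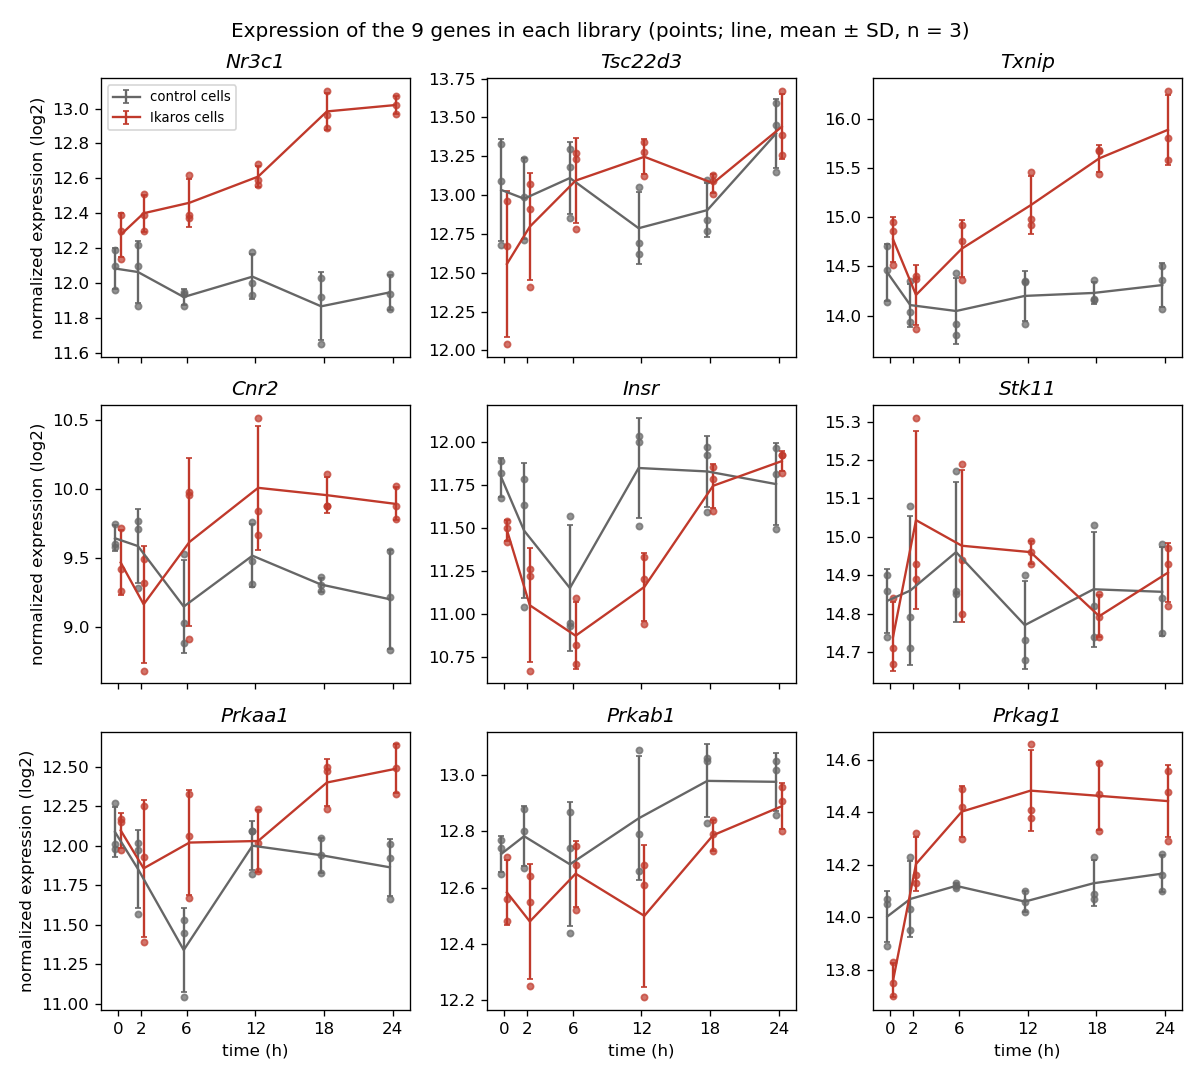
Normalized expression (log2) of the 9 genes against time (h) in control cells (grey) and Ikaros cells (red). Points are libraries and lines join group means with their SD, n = 3. Txnip lies above control in all 3 Ikaros libraries from 12 h on and Nr3c1 from 2 h on, while Stk11 stays between 14.67 and 15.31 in both lines.

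Nr3c1 (ENSMUSG00000024431; GRCm38 chromosome 18, 39410545 to 39519421, reverse strand, protein coding) encodes the glucocorticoid receptor, a ligand-activated transcription factor that drives death of lymphoid precursors when its hormone is present. In control cells it stood at 12.10, 11.96 and 12.19 at 0 h, at 12.22, 12.10 and 11.87 at 2 h and at 11.95, 11.94 and 11.87 at 6 h. The later control values were 12.18, 12.00 and 11.93 at 12 h, 12.03, 11.92 and 11.65 at 18 h and 12.05, 11.94 and 11.85 at 24 h. Control cells thus stayed within a narrow band for the whole course. Nr3c1 in Ikaros cells was 12.30, 12.14 and 12.39 at 0 h, 12.51, 12.39 and 12.30 at 2 h and 12.62, 12.37 and 12.39 at 6 h. It then reached 12.68, 12.56 and 12.59 at 12 h, 12.96, 12.89 and 13.10 at 18 h and 12.97, 13.02 and 13.07 at 24 h. The lines overlapped at 0 h, and from 2 h on all 3 Ikaros libraries lay above the 3 control libraries of the same time.

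The difference of Nr3c1 between the lines was 0.20 at 0 h (95% interval -0.02 to 0.41, adjusted p 0.33), 0.34 at 2 h (adjusted p 0.0247) and 0.54 at 6 h (adjusted p 2.27e-04). It was 0.57 at 12 h (adjusted p 6.72e-05), 1.11 at 18 h (SE 0.11, adjusted p 9.02e-10) and 1.08 at 24 h (SE 0.11, adjusted p 1.25e-09), which is 2.11-fold. Nr3c1 was the member called at 2 h, and that call was lost without replicate 1, 2 or 3 (0.36, 0.36 and 0.29, adjusted p 0.125, 0.244 and 0.0642) and in a fit of only the groups compared (adjusted p 0.249). Among the neighbouring times in Ikaros cells, the step from 12 h to 18 h passed the test (0.37, SE 0.11, adjusted p 0.0104), but not without replicate 2 (0.40, adjusted p 0.151) or without replicate 3 (0.30, adjusted p 0.0509).

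Tsc22d3 (ENSMUSG00000031431; chromosome X, 140539528 to 140600659, reverse strand, protein coding), the glucocorticoid-induced leucine zipper, was not called between the lines at any time. Its Ikaros mean was lowest at 0 h (12.56) and highest at 24 h (13.44), and its control mean was also highest at 24 h (13.40). Over all times it ranged from 12.62 to 13.59 in control cells and from 12.04 to 13.67 in Ikaros cells, each n = 18. It was 13.33, 13.09 and 12.68 in control and 12.96, 12.67 and 12.04 in Ikaros cells at 0 h, and the lines overlapped. At 12 h the 3 Ikaros libraries (13.34, 13.28 and 13.12) lay above the 3 control libraries (12.69, 13.05 and 12.62). The difference there was 0.46 and did not pass the test (95% interval 0.02 to 0.89, adjusted p 0.0804). With culture batch as a block and 0 h cultures blocked separately it was called (0.46, adjusted p 0.0364). At 24 h it was 0.04 (95% interval -0.39 to 0.48, adjusted p 0.871). Because Tsc22d3 began 0.48 lower in Ikaros cells, its difference changed by 0.94 from 0 h to 12 h (SE 0.30, adjusted p 0.0192). That change was not called without replicate 1, 2 or 3 (0.89, 1.08 and 0.83, adjusted p 0.0693, 0.131 and 0.061).

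Of the 16 of 17 chaperones and cofactors of the glucocorticoid receptor in the table, Nr3c1 included, 8 were higher and 6 lower at 24 h, when 31.0% of all genes were higher and 31.9% lower, with a median difference of 0.46 against -0.01 over all genes. Ptges3 (p23), an HSP90 cochaperone that stabilizes the receptor, was lower by -1.78 (adjusted p 1.12e-13). Hsp90b1, the HSP90 of the endoplasmic reticulum, was lower by -1.18 (adjusted p 1.46e-07). Of the other HSP90 genes listed, Hsp90aa1 was lower by -1.14 (adjusted p 5.39e-06) and Hsp90ab1 was not called (0.02, adjusted p 0.899). The chromatin remodeller Smarca4, which opens receptor-bound chromatin, was higher by 1.60 (adjusted p 1.69e-14). Of 13 of 17 glucocorticoid-responsive genes in the table, 6 were higher and 2 lower at 24 h, with a median of 0.79. Il7r, the interleukin 7 receptor chain and also one of the pre-B markers, was higher by 2.15 (adjusted p 1.03e-11), after it had been lower by -0.54 at 2 h (adjusted p 0.0217) and -0.85 at 6 h (adjusted p 2.06e-04), and Zfp36, an mRNA decay factor, by 1.93 (adjusted p 4.39e-04). The 2 lower genes were Fkbp5, a cochaperone and a standard readout of receptor activity, by -2.05 (adjusted p 7.91e-15), and Cdkn1a, the cell cycle inhibitor p21, by -0.61 (adjusted p 0.0034). Cdkn1a had been higher at 2 h by 0.54 (adjusted p 0.0295) and at 6 h by 0.77 (adjusted p 9.57e-04). Fkbp5 was already lower by -0.51 at 0 h (adjusted p 0.00257). Tsc22d3 is among the 5 genes of that list without a call.

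Txnip (ENSMUSG00000038393; chromosome 3, 96557957 to 96561883, forward strand, protein coding) showed the largest difference of the 9 genes at 24 h. Its protein binds thioredoxin and removes glucose transporters from the cell surface. In control cells Txnip stood at 14.71, 14.46 and 14.14 at 0 h, at 14.04, 14.35 and 13.93 at 2 h and at 13.80, 14.43 and 13.91 at 6 h. Its later control values were 14.35, 14.34 and 13.91 at 12 h, 14.17, 14.36 and 14.16 at 18 h and 14.07, 14.50 and 14.36 at 24 h. Control means stayed between 14.05 and 14.44, and none of the control times was called against 0 h. In Ikaros cells it was 14.86, 14.95 and 14.51 at 0 h, 14.40, 14.37 and 13.86 at 2 h and 14.92, 14.76 and 14.36 at 6 h. Ikaros cells then held 14.92, 15.46 and 14.98 at 12 h, 15.44, 15.68 and 15.67 at 18 h and 15.58, 15.80 and 16.28 at 24 h. All 3 Ikaros libraries lay above the control libraries at 12, 18 and 24 h, and the lines overlapped at 0, 2 and 6 h.

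The difference of Txnip was 0.34 at 0 h (95% interval -0.09 to 0.77, adjusted p 0.421) and 0.10 at 2 h (95% interval -0.33 to 0.53, adjusted p 0.801). It passed the test at 6 h with 0.63 (adjusted p 0.0196), at 12 h with 0.92 (adjusted p 7.33e-04), at 18 h with 1.37 (SE 0.21, adjusted p 3.30e-06) and at 24 h with 1.58 (SE 0.21, adjusted p 2.87e-07), a 2.98-fold difference. The 6 h call was lost without replicate 1 (0.39, adjusted p 0.339), without replicate 2 (0.78, adjusted p 0.055) and in a fit of only the groups compared (0.63, adjusted p 0.12). The Ikaros mean was 14.77 ± 0.23 for the uninduced cultures and 14.21 ± 0.30 after 2 h (SD, n = 3), and all 3 libraries of 2 h lay below those of 0 h. The step from 0 h was -0.57 (adjusted p 0.0581), and it was called once culture batch entered as a replicate block (-0.60, adjusted p 0.0289). Control cells stood 0.33 lower at 2 h than at 0 h on the same scale, without a call (95% interval of the difference -0.76 to 0.10). No later step between neighbouring times of Txnip in Ikaros cells passed the test.

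Txnip overlaps an antisense transcript, Gm15441, which stood between 7.13 and 8.98 in control and between 7.32 and 9.17 in Ikaros libraries. The libraries were stranded, but the strand setting of the gene counting is not given in the sources used here, so reads of the overlapping part may be shared. Gm15441 differed between the lines at 12 h by 1.11 (adjusted p 0.0196) and at 24 h by 0.22 (95% interval -0.57 to 1.01, adjusted p 0.631), when Txnip differed by 1.58.

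Of the 10 of 12 listed alpha-arrestins, thioredoxins and MondoA factors in the table, all were called at 24 h, when 62.9% of all genes were. Of these, 6 were higher and 4 lower in Ikaros cells, with a median of 0.53. The higher genes were Txnip, its family members Arrdc1, Arrdc2 and Arrdc3 (its near relative Arrdc4 was not analysed here), and Mlxip (MondoA) and Mlx, the glucose-sensing factors that bind the Txnip promoter in other cells. Arrdc3 was higher by 0.87 at 6 h (adjusted p 0.00304), by 1.65 at 12 h and by 2.28 at 24 h (adjusted p 1.03e-09). Mlxip was not called at 6 h (0.30, adjusted p 0.0772) and was higher by 0.73 at 12 h (adjusted p 6.76e-05) and by 1.36 at 24 h (adjusted p 1.57e-09). The 4 lower genes were the thioredoxins and their reductases, Txn1 by -0.46, Txn2 by -0.71, Txnrd1 by -0.63 and Txnrd2 by -0.74. Txnrd1 stood at -0.44 already at 0 h (adjusted p 0.158), and its change from there to 24 h was -0.19 (adjusted p 0.579). Txn1 passed the test at 24 h (adjusted p 3.26e-05) and not at 18 h (0.02, adjusted p 0.852), and the call of Txnrd2 was lost without replicate 1 (-0.59, adjusted p 0.0739). Mlx was lower at 12 h, by -0.42 (adjusted p 0.0062), before it was higher at 24 h by 0.38 (adjusted p 0.00803).

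Of 7 of 9 genes of glucose uptake and entry in the table, 1 was higher and 5 were lower at 24 h, with a median of -0.62. The share called was 85.7%, against 62.9% of all genes. Slc2a1, which encodes the glucose transporter GLUT1 that Txnip removes from the membrane, was called higher in Ikaros than in control cells by 1.04 at 2 h (adjusted p 0.00333) and 0.65 at 6 h (adjusted p 0.0389). At 0 h the difference was 0.38 without a call (adjusted p 0.451). From 0 h to 2 h the control mean went from 13.96 to 13.06 and the Ikaros mean from 14.34 to 14.09. Slc2a1 was then lower by -1.32 at 18 h (adjusted p 4.78e-05) and by -2.56 at 24 h (adjusted p 8.67e-10). Hexokinase 2 (Hk2), which traps glucose in the cell, was lower by -1.53 at 12 h (adjusted p 2.37e-09) and by -3.10 at 24 h (adjusted p 6.99e-16). The 1 higher gene was Slc2a8, an intracellular transporter, by 0.96 (adjusted p 5.44e-05).

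The bases of the Txnip window are shown because Txnip had the largest difference of the members at 24 h. Promoter windows of RefSeq (GRCm38.p6) each hold 250 bases before and 50 bases after a transcript start. Nr3c1 was left out of the search, so its promoter was not examined, and Insr had no entry. For the other 7 of the 9 genes, 10 windows were used. They were searched on both strands for the Ikaros core GGGAA, for TGGGAA and GGGAAT, which contain it, for the E-box CACGTG, for the FoxO core GTAAACA and for a glucocorticoid element, GNACA and TGTNC with 3 bases between. A carbohydrate element, CACGNG in a pair with 5 bases between, was added after the Txnip sequence had been seen. The Txnip window held 1 match each of the Ikaros core, the glucocorticoid element, the FoxO core and the carbohydrate element, in this order toward the start, all 4 in capitals below (chr3:96557707-96557956, forward strand, the 250 bases before the start).

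Txnip: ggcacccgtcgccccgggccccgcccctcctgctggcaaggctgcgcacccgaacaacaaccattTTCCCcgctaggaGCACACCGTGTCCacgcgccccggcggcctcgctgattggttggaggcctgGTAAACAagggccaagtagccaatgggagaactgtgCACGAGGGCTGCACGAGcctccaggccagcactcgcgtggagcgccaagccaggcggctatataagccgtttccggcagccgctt

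Counted from the transcript start as 0, the Ikaros core of Txnip lies at -185 to -181 on the opposite strand, the glucocorticoid element at -172 to -160, the FoxO core at -121 to -115 and the carbohydrate element at -85 to -69. Of 32851 promoter windows of mouse genes, 62.7% held the Ikaros core, 3.65% the FoxO core, 0.4749% the glucocorticoid element and 0.0487% the carbohydrate element. A match is a stretch of letters and not a site that was shown to be bound. The Ikaros core was found in 5 of the 10 windows, 1 in each of 5 genes, and is shown in capitals with its flanks for the 4 others (Tsc22d3 with the match nearer the start).

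Cnr2 (chr4:135911480-135911524, forward strand): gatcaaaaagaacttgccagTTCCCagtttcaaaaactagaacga

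Prkag1 (chr15:98831536-98831580, reverse strand): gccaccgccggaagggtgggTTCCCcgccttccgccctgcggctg

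Prkab1 (chr5:116024534-116024578, reverse strand): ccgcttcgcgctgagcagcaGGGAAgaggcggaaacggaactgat

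Tsc22d3 (chrX:140542693-140542737, reverse strand): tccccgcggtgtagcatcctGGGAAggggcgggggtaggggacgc

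The core stands in the window of Prkag1, which was called higher, and in those of Prkab1 and Tsc22d3, which were not called at 24 h, while the Prkaa1 window holds none of the motifs searched. TGGGAA, found in 25.56% of all windows, occurred in Cnr2 and Tsc22d3, and GGGAAT (13.1%) and the E-box (7.15%) in no member window searched. Stk11 holds the FoxO core after its start, at 16 to 22.

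**Figure D2:**
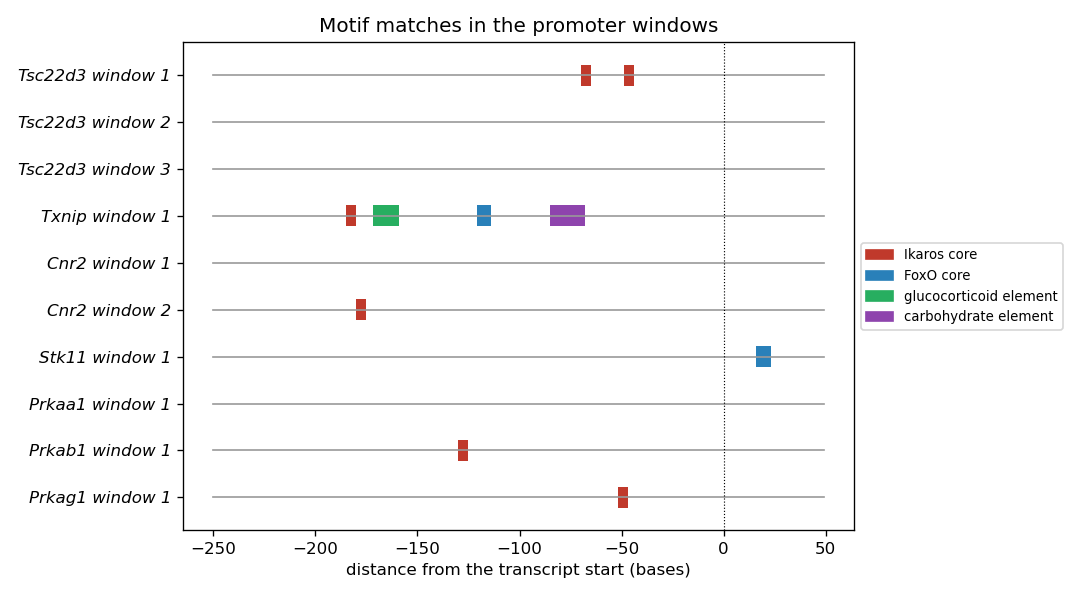
Position of motif matches in the 10 promoter windows of 7 genes, as the distance from the transcript start in bases. Bars are matches, and the Txnip window holds 4 kinds of match, 1 of them the carbohydrate element that was added after its sequence had been seen.

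Cnr2 (ENSMUSG00000062585; chromosome 4, 135895394 to 135920207, forward strand, protein coding) encodes CB2, the Gi-coupled cannabinoid receptor of immune cells. Its mean lay at the 25.2 percentile of gene means, a rough mark of a low level. In control cells Cnr2 was 9.75, 9.60 and 9.58 at 0 h, 9.77, 9.71 and 9.28 at 2 h and 8.88, 9.03 and 9.53 at 6 h. Control values at the later times were 9.76, 9.48 and 9.31 at 12 h, 9.36, 9.30 and 9.26 at 18 h and 9.55, 9.22 and 8.83 at 24 h. The control mean was highest at 0 h and lowest at 6 h. In Ikaros cells it was 9.72, 9.42 and 9.26 at 0 h, 9.32, 9.49 and 8.68 at 2 h and 9.96, 9.98 and 8.91 at 6 h. The Ikaros libraries then held 9.84, 9.67 and 10.52 at 12 h, 9.88, 10.11 and 9.88 at 18 h and 9.88, 10.02 and 9.78 at 24 h. The lines overlapped up to 12 h, and at 18 and 24 h each Ikaros library was above each control library.

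The difference of Cnr2 was -0.18 at 0 h (95% interval -0.70 to 0.35) and 0.50 at 12 h (95% interval -0.03 to 1.02, adjusted p 0.114). It passed the test at 18 h (0.65, SE 0.25, adjusted p 0.03) and at 24 h (0.69, SE 0.25, adjusted p 0.0195), a 1.62-fold difference. The 18 h call was lost without replicate 1 (0.71, adjusted p 0.108) and without replicate 2 (0.57, adjusted p 0.229) and with the trend in GC content and length taken out (0.59, adjusted p 0.0516), and the 24 h call without replicate 2 (0.64, adjusted p 0.166). Without replicate 3 the difference at 6 h rose from 0.47 to 1.01 (adjusted p 8.24e-05). Of 8 of 14 genes of the cannabinoid system in the table, 5 were higher and 2 lower at 24 h, with a median of 0.65. Called were 87.5% of them, against 62.9% of all genes. Gnai2, the inhibitory G protein subunit that CB2 couples to, was higher by 1.02 (adjusted p 1.57e-06) and Gpr18, a lipid-sensing receptor, by 0.91 (adjusted p 0.00317), after it had been lower by -0.86 at 0 h (adjusted p 0.0352). Lower were Daglb, which makes the ligand 2-arachidonoylglycerol, by -1.43 (adjusted p 1.22e-09), and Abhd12, a lipase that degrades it, by -0.52 (adjusted p 0.0316). Abhd12 was not called without replicate 1 (-0.57, adjusted p 0.103) or replicate 2 (-0.61, adjusted p 0.108), and its call was kept in 7 of 10 alternative fits.

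Insr (ENSMUSG00000005534; chromosome 8, 3122061 to 3279617, reverse strand, protein coding), the insulin receptor, was called at 12 h and at no other time. In control cells Insr was 11.89, 11.67 and 11.82 at 0 h, 11.63, 11.78 and 11.04 at 2 h and 10.93, 11.57 and 10.95 at 6 h. Back near the start, it was 12.03, 12.00 and 11.51 at 12 h, 11.92, 11.97 and 11.59 at 18 h and 11.81, 11.96 and 11.49 at 24 h. The control line therefore had its lowest mean at 6 h. In Ikaros cells Insr was 11.54, 11.50 and 11.42 at 0 h, 11.26, 11.22 and 10.67 at 2 h and 11.09, 10.71 and 10.82 at 6 h. It was 10.94, 11.20 and 11.33 at 12 h, 11.78, 11.60 and 11.85 at 18 h and 11.92, 11.82 and 11.92 at 24 h. The Ikaros mean was also lowest at 6 h. All 3 Ikaros libraries lay below the 3 control libraries at 0 h, where the difference was -0.31 without a call (adjusted p 0.428), and again at 12 h.

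That 12 h difference of Insr was -0.69 (SE 0.19, adjusted p 0.00462) and was not called without replicate 1 (-0.49, adjusted p 0.189) or without replicate 2 (-0.64, adjusted p 0.0608). At 24 h the difference was 0.14 (95% interval -0.26 to 0.53). The step from 12 h to 18 h in Ikaros cells passed the test (0.59, SE 0.19, adjusted p 0.026), and not without replicate 1 (0.46, adjusted p 0.28) or replicate 2 (0.68, adjusted p 0.0974). Of 9 of 14 genes of the insulin and IGF receptor axis in the table, 3 were higher and 2 lower at 24 h, with a median of 0.14. That share, 55.6%, was below the 62.9% called over all genes. The 2 lower genes were the docking protein Irs1, by -2.31 (adjusted p 1.65e-05) after -4.53 at 12 h (adjusted p 7.12e-10), and the receptor-binding adaptor Grb10, by -1.67 (adjusted p 8.67e-07). Irs1 was low in Ikaros cells, with a mean of 5.26 at 12 h and 7.11 at 24 h, against a median gene mean of 11.72. The PI3-kinase regulatory subunit Pik3r1 was higher by 1.44 (adjusted p 1.10e-05), the feedback inhibitor Socs1, lower by -0.96 at 0 h (adjusted p 0.00688), by 1.35 (adjusted p 1.15e-05) and the phosphatase Ptpn1, which dephosphorylates the insulin receptor, by 0.55 (adjusted p 3.65e-06).

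Stk11 (ENSMUSG00000003068; chromosome 10, 80115803 to 80130682, forward strand, protein coding), the AMPK kinase LKB1, was called in none of the comparisons between the lines in the fit without a block. It ranged from 14.68 to 15.17 in control and from 14.67 to 15.31 in Ikaros cells over 18 libraries each. Its differences between the lines lay between -0.09 at 0 h and 0.19 at 12 h, none was called, and the 95% interval at 24 h was -0.20 to 0.29. At 12 h the 3 Ikaros libraries (14.99, 14.93 and 14.96) were above the 3 control libraries (14.73, 14.68 and 14.90) without a call (adjusted p 0.199), a value that passed without replicate 3 (0.26, adjusted p 0.0201) and with batch and separate 0 h blocks (0.19, adjusted p 0.0493). Stk11 overlaps Cbarp on the other strand, which was higher by 0.68 at 2 h (adjusted p 0.00372) and by 0.80 at 6 h (adjusted p 3.83e-04), times at which Stk11 differed by 0.18 and 0.01.

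Prkaa1 (ENSMUSG00000050697; chromosome 15, 5143861 to 5181899, forward strand, protein coding) encodes the catalytic alpha 1 subunit of AMPK. In control cells Prkaa1 was 11.98, 12.01 and 12.27 at 0 h, 11.97, 12.02 and 11.57 at 2 h and 11.04, 11.53 and 11.45 at 6 h. It returned to 12.09, 12.09 and 11.82 at 12 h, 12.05, 11.94 and 11.83 at 18 h and 11.66, 12.01 and 11.92 at 24 h. All 3 control libraries at 6 h lay below every other control library of this gene. In Ikaros cells Prkaa1 was 11.97, 12.15 and 12.17 at 0 h, 12.25, 11.93 and 11.39 at 2 h and 12.33, 12.06 and 11.67 at 6 h. Later values were 12.02, 12.23 and 11.84 at 12 h, 12.50, 12.47 and 12.23 at 18 h and 12.33, 12.49 and 12.64 at 24 h. Ikaros cells were thus highest at the end, and each Ikaros library was above each control library at 6, 18 and 24 h.

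The lines differed in Prkaa1 by 0.68 at 6 h (SE 0.18, adjusted p 0.00458), by 0.03 at 12 h (95% interval -0.34 to 0.41), by 0.46 at 18 h (adjusted p 0.0346) and by 0.62 at 24 h (SE 0.18, adjusted p 0.00446), a 1.54-fold difference. At 6 h the Ikaros mean (12.02) was near that at 0 h (12.10), while the control mean fell by 0.75 on the log2 scale from 0 h (adjusted p 0.0249). The 6 h difference was not called without replicate 1 (0.38, adjusted p 0.224), without replicate 2 (0.76, adjusted p 0.0703) or in a fit of only the groups compared (adjusted p 0.0937), the 18 h difference without replicate 1 (0.46, adjusted p 0.08) or replicate 2 (0.42, adjusted p 0.245), and the 24 h difference without replicate 2 (0.69, adjusted p 0.0543).

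Prkag1 (ENSMUSG00000067713; chromosome 15, 98812797 to 98831521, reverse strand, protein coding), the gamma 1 subunit that binds AMP, was called higher in Ikaros cells 2 h after induction than at 0 h. In Ikaros cells it was 13.75, 13.70 and 13.83 at 0 h, 14.13, 14.16 and 14.32 at 2 h and 14.30, 14.49 and 14.42 at 6 h. From there it held 14.41, 14.38 and 14.66 at 12 h, 14.33, 14.47 and 14.59 at 18 h and 14.48, 14.29 and 14.56 at 24 h. The 0 h libraries lay below all later ones of that line. In control cells Prkag1 was 14.07, 14.05 and 13.89 at 0 h, 13.95, 14.03 and 14.23 at 2 h and 14.11, 14.13 and 14.12 at 6 h. The last control values were 14.06, 14.02 and 14.10 at 12 h, 14.09, 14.07 and 14.23 at 18 h and 14.10, 14.16 and 14.24 at 24 h. Ikaros libraries were below the control libraries at 0 h, overlapped at 2 h and were above at the 4 later times.

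The step of Prkag1 from 0 h to 2 h in Ikaros cells was 0.44 (SE 0.09, adjusted p 0.00128) and was lost without replicate 2 (0.44, adjusted p 0.0867). At 2 h Prkag1 differed between the lines by 0.13 without a call (adjusted p 0.353), and the change of that difference from 0 h was not called. Between the lines it differed by -0.24 at 0 h (95% interval -0.43 to -0.05, adjusted p 0.119), by 0.28 at 6 h (adjusted p 0.0181), by 0.43 at 12 h (SE 0.09, adjusted p 4.42e-04), by 0.34 at 18 h (adjusted p 0.00288) and by 0.28 at 24 h (SE 0.09, adjusted p 0.0111), a 1.21-fold difference. The 6 h and 24 h calls were lost without replicate 1 (adjusted p 0.0989 and 0.165) and without replicate 2 (adjusted p 0.232 and 0.0528), and the 18 h call without replicate 2 (adjusted p 0.0951). Fitting only the groups compared also ended the 6, 18 and 24 h calls (adjusted p 0.16, 0.0539 and 0.0615). Without replicate 3 the 0 h difference was called (-0.33, adjusted p 0.0207). The antisense transcript B130046B21Rik overlaps Prkag1 and differed by -1.97 at 6 h (adjusted p 2.13e-05) and -3.29 at 24 h (adjusted p 8.82e-10). Its Ikaros mean at 24 h was low, at 5.60.

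Prkab1 (ENSMUSG00000029513; chromosome 5, 116013586 to 116024508, reverse strand, protein coding), the beta 1 subunit, ranged from 12.44 to 13.09 in control and from 12.21 to 12.96 in Ikaros cells over 18 libraries each. At 2 h the difference was -0.30 with all 3 Ikaros libraries below and no call (adjusted p 0.103), and without replicate 3 it was called (-0.39, adjusted p 0.0373). At 12 h Prkab1 passed the test with -0.35 (SE 0.13, adjusted p 0.028), where the libraries stood at 12.61, 12.68 and 12.21 against 12.79, 13.09 and 12.66 and overlapped. That call was lost without replicate 1, 2 or 3 (-0.43, -0.32 and -0.30, adjusted p 0.0891, 0.162 and 0.0668) and in a fit of only the groups compared (adjusted p 0.201). At 24 h the difference was -0.09 (95% interval -0.35 to 0.17). Of the 3 subunits, the alpha 1 and gamma 1 genes were thus called higher at 24 h and the beta 1 gene was not, and whether they differed from each other was not tested.

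**Figure D3:**
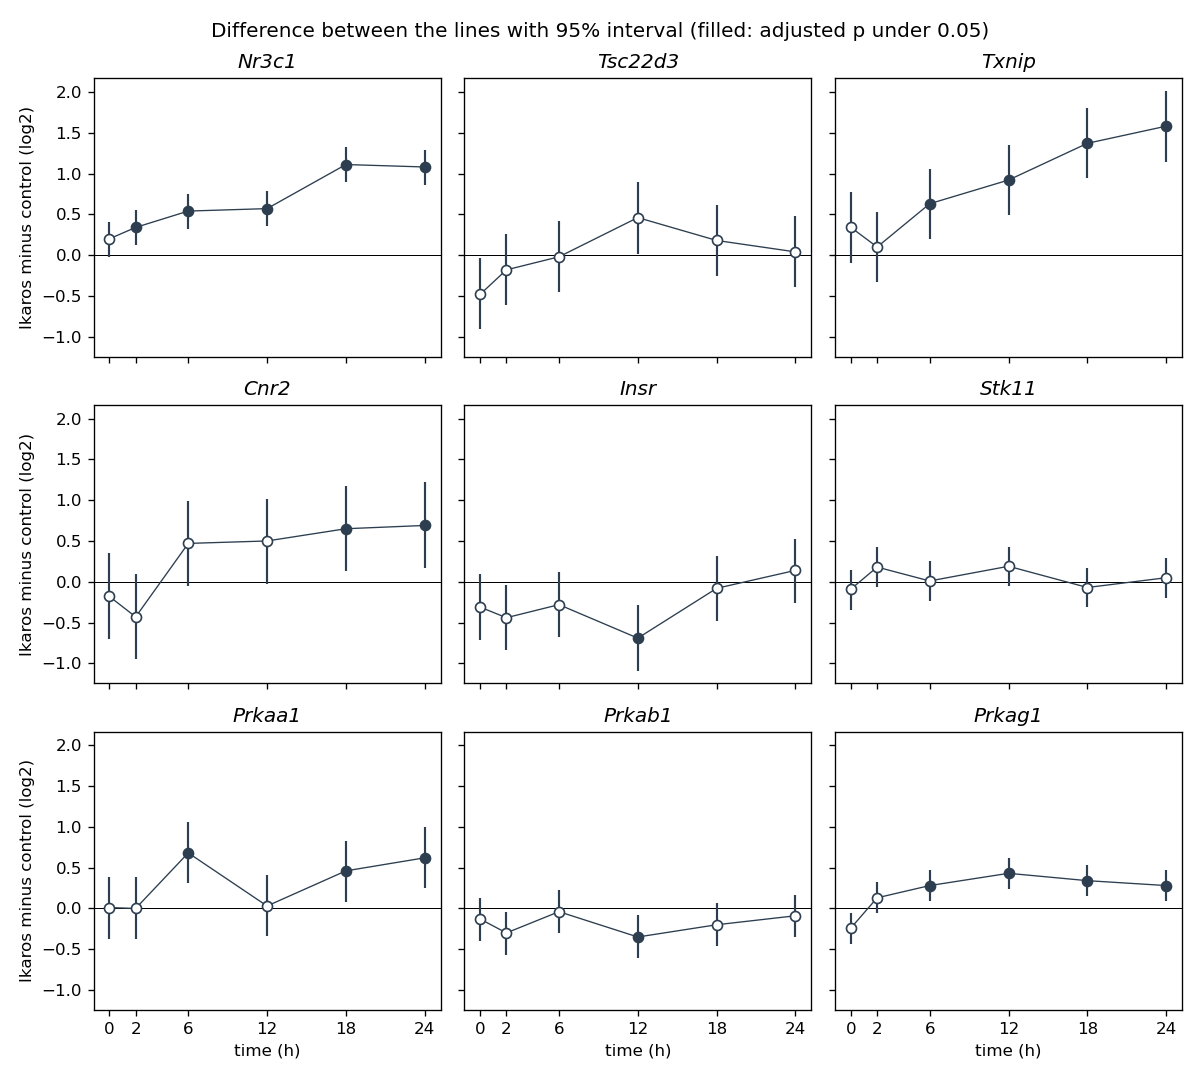
Difference of log2 expression, Ikaros minus control, against time (h) for each gene, with its 95% interval from limma. Filled points passed an adjusted p under 0.05. The differences of Nr3c1 and Txnip are 1.11 and 1.37 at 18 h and 1.08 and 1.58 at 24 h, whereas the interval of Stk11 covers 0 at all 6 times.

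Of 12 of 14 AMPK subunits and upstream kinases in the table, 2 were higher at 24 h (Prkaa1 and Prkag1). At that time 4 were lower (Prkab2, Stradb, Camkk1 and Camkk2), and the median was -0.07 against -0.01 over all genes. With 6 of 12 called, the share was below the 62.9% called over all genes. Prkab2, the other beta subunit, was lower by -0.33 at 6 h (adjusted p 0.0032) and by -1.07 at 24 h (adjusted p 2.61e-11). The calcium-dependent AMPK kinases were lower too: Camkk1 by -1.63 (adjusted p 1.77e-12), after -0.52 at 0 h (adjusted p 0.00288), and Camkk2 by -0.99 (adjusted p 1.01e-07). Camkk2 had been higher by 0.82 at 0 h (adjusted p 3.71e-05). Stradb, a pseudokinase of the LKB1 complex, was lower by -0.44 (adjusted p 0.0456), with -0.36 at 0 h (adjusted p 0.325) and a change from there of -0.09 (adjusted p 0.812). Prkag2 was higher at 0 h by 0.89 (adjusted p 4.94e-04) and did not pass the test at 24 h (0.27, adjusted p 0.15).

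Of 21 of 22 AMPK substrates and energy-stress effectors in the table, 12 were higher and 4 lower at 24 h. Their median was 0.42 against -0.01 over all genes, and 76.2% were called, against 62.9% of all genes. Sesn3 and Sesn1, sestrins that restrain growth signalling under stress, were higher by 5.05 (adjusted p 9.64e-12) and 2.20 (adjusted p 7.80e-13). Sesn3 already differed by 3.91 at 0 h (adjusted p 4.17e-08), Sesn1 by 0.16 (adjusted p 0.63). Fnip2, a partner of folliculin, was lower by -2.87 (adjusted p 1.58e-06) and Acaca, the fatty acid synthesis enzyme that AMPK inhibits, by -1.22 (adjusted p 8.11e-14). Low levels enter here: at 24 h Fnip2 stood at 6.08 in Ikaros and Sesn3 at 6.30 in control cells, against a median gene mean of 11.72. Of 9 of 12 AMPK-related kinases that LKB1 activates, 5 were higher and 2 lower (77.8% called), with a median of 0.49. Snrk was higher by 1.26 (adjusted p 7.70e-10) and Nuak1 by 0.75 (adjusted p 0.0311, a call lost without replicate 2 or 3, 0.82 and 0.45, adjusted p 0.174 and 0.17), whereas Sik1 was lower by -2.17 (adjusted p 1.44e-04) and Sik2 by -0.76 (adjusted p 4.35e-04). The Nuak1 call was kept in 6 of 10 alternative fits.

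**Figure D4:**
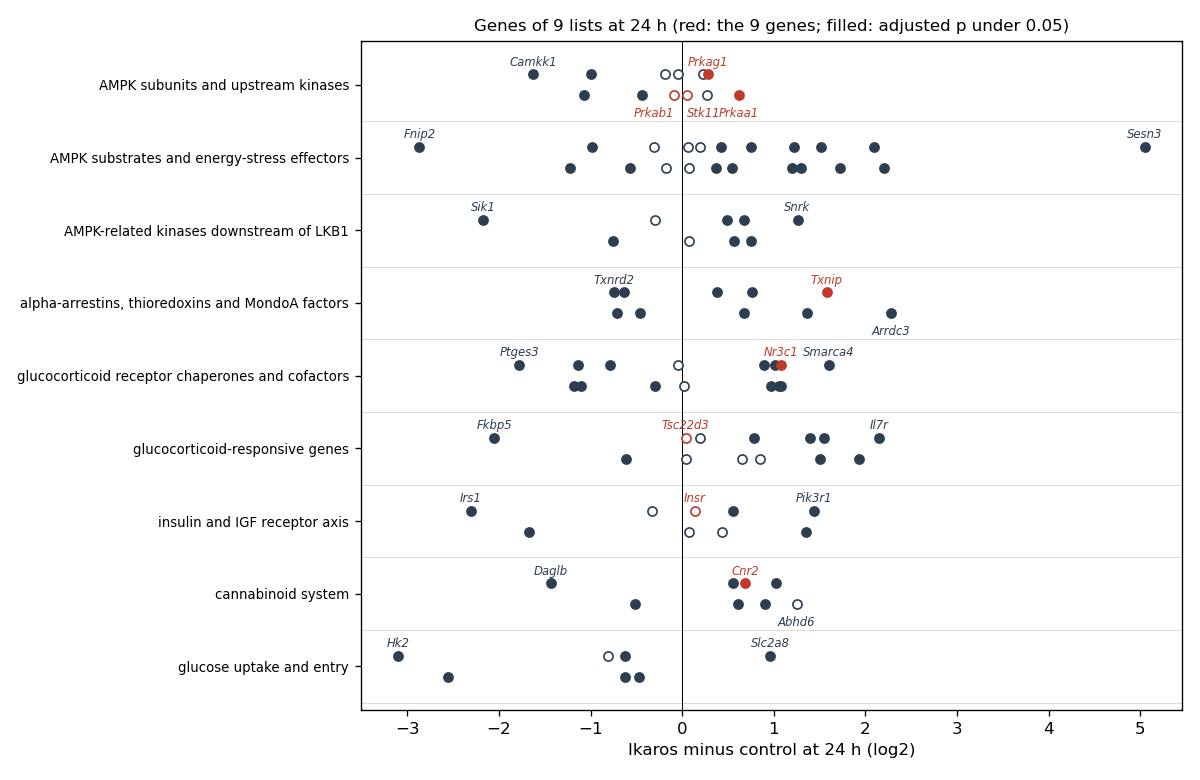
Difference of log2 expression at 24 h, Ikaros minus control, for the genes of 9 pathway lists, 1 point per gene, with 1 gene of the receptor cofactors not drawn. Red points are the 9 members, and filled points passed an adjusted p under 0.05. Txnip at 1.58 has Arrdc3 beyond it at 2.28, and Hk2 at -3.10 is the lowest point of the glucose list.

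Since 0 h was not identical between the lines, the change of each difference from 0 h was tested as well. It was called for 0 of 9 members at 2 h by limma (1 at an unadjusted p under 0.05; 3.10% of all genes called) and for 1 at 6 h (Prkag1; 15.9% of all genes). The count was 2 at 12 h (Tsc22d3 and Prkag1; 29.7%), 3 at 18 h (Nr3c1, Txnip and Prkag1; 43.0%) and 4 at 24 h (Nr3c1, Txnip, Cnr2 and Prkag1; 48.4%). Txnip changed by 1.24 to 24 h (SE 0.30, adjusted p 0.0011) and Nr3c1 by 0.88 (SE 0.15, adjusted p 1.97e-05). Prkag1 changed by 0.52 (SE 0.13, adjusted p 0.00172) and Cnr2 by 0.87 (SE 0.36, adjusted p 0.0474). For Prkaa1 the change at 24 h was 0.61 (adjusted p 0.0516) and was called with the replicate block (adjusted p 0.0424). The block also called the change of Nr3c1 at 12 h (0.38, adjusted p 0.0574 without and 0.0259 with the block). Testing the 5 changes of a gene together by F gave a call for 5 of 9 members (Nr3c1, Txnip, Cnr2, Prkaa1 and Prkag1), against 59.8% of all genes. Without replicate 1 or replicate 2 it called Nr3c1 and Txnip.

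Within the Ikaros line, 1 member was called from 0 h to 2 h (Prkag1, with 19.2% of all genes). With culture batch as a replicate block 4 were called, where Txnip, Insr (-0.52, adjusted p 0.0412) and Stk11 (0.37, adjusted p 0.00617) joined it. The block raised the calls over all genes from 2444 to 3720 of 12762. Culture batches 1 and 4 alone hold both times, so that blocked step rests mainly on them. From 2 h to 6 h limma called 0 of 9 (2 at an unadjusted p under 0.05; 11.2% of all genes), and from 6 h to 12 h 0 of 9 (1 unadjusted; 20.8%). From 12 h to 18 h it called 2, Nr3c1 and Insr (25.5%), and from 18 h to 24 h 0 of 9 (0 unadjusted; 5.77%). No other step of the members passed the test.

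Control cells gave the background of drug, culture and collection. Against their own 0 h, limma called 0 of 9 members at 2 h (0.0470% of all genes), 12 h (0.0549%), 18 h (0.478%) and 24 h (0.470%), with 0 at an unadjusted p under 0.05 at each of these times. At 6 h it called 1, Prkaa1, of 5.10% of all genes, a call lost without replicate 1, 2 or 3 (-0.65, -0.88 and -0.71, adjusted p 0.267, 0.169 and 0.0535). For Insr the value there was -0.64 without a call (adjusted p 0.0518), and it was called with the replicate block (-0.72, adjusted p 0.0138). Over all genes 651 were called in control cells at 6 h, 0 without replicate 1 or 2 and 115 without replicate 3. The part that the 6 h control libraries take in the differences of the lines at 6 h was not tested.

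Across the 12 group means, Nr3c1 and Txnip had a Pearson correlation of 0.93, Txnip and Prkaa1 of 0.83 and Txnip and Cnr2 of 0.80, while Stk11 and Insr stood at -0.72. The 12 points share their libraries between genes and are split by line, so these values only describe the shape of the courses. Among the 6366 other genes at or above the median level, those most like Txnip were Pik3r4, Nfatc1 and Foxo3 (each r = 0.989), and 184 genes reached 0.95. Those most like Nr3c1 were Cnot6l (0.990), St8sia4 (0.988) and Pbx2 (0.988), with 181 genes at 0.95 or more. The others had few such genes: 5 for Prkag1 (Gapt, Pigo and Shkbp1 first), 4 for Prkaa1 (Nono, Gabpa and Sf3b2 first) and 1 for Cnr2, which was Csk (0.954). Insr, Stk11, Prkab1 and Tsc22d3 had none, and their most similar genes were Fam160b1 (0.927), Sec62 (0.939), Dhx8 (0.830) and Rbm7 (0.873).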

How the data were processed

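Messenger RNA of 36 B3 libraries was measured by stranded sequencing. The authors aligned fragments to mm10 with TopHat2, counted them per gene with HTSeq, normalized for GC content and length with cqn and adjusted library preparation with ComBat. The deposited values are log2 expression with a constant added so that the lowest is 1. The file does not state the base, and folds here rest on base 2. Strand setting, annotation and versions are not given in the sources used here. ComBat can make standard errors too small, and depth is unknown, so no counting error is given. Precision is limited by 3 libraries per group.

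Groups were taken from the labels. The members and gene lists were chosen with earlier results of these data known. All 12 groups entered 1 linear model (limma 3.58.1 under R 4.3.3, moderated and two-sided), with Benjamini-Hochberg adjustment over all 12762 genes and a call at an adjusted p under 0.05. A 95% interval is from the moderated standard error. The fit was tested on simulated data with independent noise, without batch links or ComBat, so that test gives no error rate for these data. No columns were left out. No pair of libraries held more than 0.384% equal values.

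Named genes are the 9 members, Ikzf1, and in each list the called genes with the 2 largest rises and falls at 24 h, beside all genes where 5 or fewer were counted. Arrdc1, Arrdc2, Mlxip and Mlx, Hsp90aa1, Hsp90ab1, Ptpn1, Prkag2, the overlapping genes and the courses of list genes over time were chosen after their values were seen. Genes of a list that were not in the table were not analysed here, and values of 1 gene that the rule picks are not reported here. Levels like a member were ranked by Pearson correlation over the 12 group means among genes with a symbol and a mean at or above 11.72, the median. Positions are from GENCODE M21 (GRCm38, the build mm10), and promoter sequences from RefSeq (GRCm38.p6).

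The labels give the control and Ikaros cultures of 1 batch the same number, which pairs them. Deviations of 18 pairs from their group means correlated by -0.0620 to 0.507 across genes (median 0.127), and 12 of 18 pairs were above 0.1. Alternatives were a replicate block (also with 0 h cultures blocked separately), a filter at the 25th percentile of gene means, quantile normalization, a mean-variance trend with robust moderation, fits restricted to the groups compared, and fits without each replicate. A fit with the trend in GC content and length taken out was added after seeing the data.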

Additional observations from a re-analysis of the deposited data

Results flagged for a closer look

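Of the comparisons of the 9 genes, 10 were picked out because the difference between Ikaros and control cells at a later time differed from that at 0 h by the interaction term itself (limma, adjusted p under 0.05, n = 3 per group). The difference of Txnip grew by 1.03 on the log2 scale to 18 h (adjusted p 0.00616, and 0.99 with adjusted p 0.063 without replicate 1) and by 1.24 to 24 h (adjusted p 0.0011). That of Nr3c1 grew by 0.92 to 18 h (adjusted p 1.48e-05) and by 0.88 to 24 h (adjusted p 1.97e-05). Cnr2 grew by 0.87 to 24 h (adjusted p 0.0474), which was not called without replicate 1 (1.12, adjusted p 0.0955) or replicate 2 (0.81, adjusted p 0.258). Tsc22d3 grew by 0.94 to 12 h (adjusted p 0.0192), starting from a difference of -0.48, and was not called without replicate 1, 2 or 3 (0.89, 1.08 and 0.83).

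Prkag1 grew by 0.52 to 6 h (adjusted p 0.00624), 0.67 to 12 h (adjusted p 2.92e-04), 0.58 to 18 h (adjusted p 7.35e-04) and 0.52 to 24 h (adjusted p 0.00172), with a difference of -0.24 at 0 h. Without replicate 2 the changes at 6, 18 and 24 h were 0.44, 0.50 and 0.54 (adjusted p 0.252, 0.0867 and 0.0523), and without replicate 1 those at 6 and 24 h were 0.53 and 0.43 (adjusted p 0.117 and 0.0897). Both lines were collected separately at 0 h, and whether that collection acted alike on them was not tested. Groups of 3 libraries were not searched for outlying samples.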

How the results depend on the processing

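Under 10 alternatives the differences of Nr3c1 from 6 h on, of Txnip from 12 h on and of Prkag1 at 12 h kept their calls. Of 1091 single-gene values, 997 kept their direction and their side of the threshold, 65 lost and 11 gained a call, and 18 changed sign, all without a call. Of 219 counts, 172 stayed within 1.5 times. The cause of lost calls was not tested. Over all genes the F test called 7626, and 4821, 4064 and 7616 without replicate 1, 2 and 3. Depth is unknown, and 3 libraries per group limit the precision.

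With culture batch entered as a replicate block, 4 members (in place of 1) were called in Ikaros cells from 0 h to 2 h and 2 (in place of 1) in control cells at 6 h. With 0 h cultures as blocks of their own these counts were 3 and 2, and the block called 1 at 0 h between the lines (in place of 0), 1 at 2 h (in place of 0) and 3 at 6 h (in place of 1) for changes from 0 h. That block also called Prkag1 at 0 h (-0.24), Tsc22d3 at 12 h (0.46) and Stk11 at 12 h (0.19) between the lines. Neither block ended a call of a member. Beyond the calls given beside the results, the block without separate 0 h blocks changed no other call of the members.

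The filter and the trend and robust settings each called 2 in the first step and 2 in control cells at 6 h. Fitting only the groups compared called 0 between the lines at 2 h, 1 at 6 h, 1 and 5 for the changes at 12 and 18 h, 0 and 1 for the steps to 2 and 18 h and 0 in control cells at 6 h, and the F test, which needs all groups, was not run in it. That fit also ended the change of Tsc22d3 at 12 h (adjusted p 0.0596), the step of Nr3c1 to 18 h (adjusted p 0.0604) and the step of Prkag1 to 2 h (adjusted p 0.0766). The change of Cnr2 at 24 h was not called with quantile normalization (adjusted p 0.05), trend and robust settings (adjusted p 0.0515) or without the GC and length trend (adjusted p 0.0536). With the GC content and length trend removed, chosen after seeing the data, 2 were called for the change at 6 h and 2 in the first step.

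Leaving out 1 replicate at a time, counts of members called between the lines ranged from 0 to 1 at 0 h, 0 to 1 at 2 h, 1 to 5 at 6 h, 3 to 5 at 12 h, 2 to 5 at 18 h and 2 to 5 at 24 h. Those for changes from 0 h ranged from 0 to 1 at 2 h, 0 to 3 at 6 h, 1 to 3 at 12 h, 2 to 4 at 18 h and 2 to 4 at 24 h, and the F test called 2 to 5. In Ikaros cells 0 to 1 was called at 2 h against 0 h, 0 to 1 at 6 h against 2 h and 0 to 1 at 18 h against 12 h, and in control cells 0 to 1 at 6 h.

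The values that changed sign were differences between the lines. Without the GC and length trend they were 0.04 for Tsc22d3, 0.00 for Stk11 and 0.03 for Prkab1 at 6 h and -0.08 for Insr at 24 h. With 1 replicate left out, Tsc22d3 ranged from -0.21 to 0.24 at 6 h and from -0.04 to 0.17 at 24 h, Txnip from -0.03 to 0.19 at 2 h and Prkab1 from -0.21 to 0.06 at 6 h (0.04 without replicate 1). Prkaa1 ranged from -0.05 to 0.06 at 0 h, from -0.13 to 0.09 at 2 h and from -0.02 to 0.08 at 12 h, and Insr from -0.50 to 0.02 at 6 h, from -0.25 to 0.06 at 18 h and from -0.01 to 0.27 at 24 h. Stk11 ranged from -0.02 to 0.05 at 6 h and from -0.04 to 0.10 at 24 h, and Gm15441 from -0.19 to 0.55 at 24 h.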
